A study of Mus musculus with 25 samples.

Results

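The growth cone, the motile tip of an extending axon, holds a small set of abundant proteins that link its membrane to actin and microtubules. The genes for 8 of them were chosen by name, with earlier results of these data known but by no threshold on a value, and all 8 were among the 9931 genes tested. *Gap43*, *Basp1*, *Marcks* and *Marcksl1* encode membrane-bound substrates of protein kinase C or calmodulin-binding proteins that gather phosphoinositides and act on the actin layer under the membrane. *Stmn1*, *Stmn2*, *Stmn3* and *Stmn4* encode the stathmins, which bind tubulin dimers and destabilize microtubules. *Gap43*, *Basp1* and *Stmn2* are widely used as markers of axon growth, and the gene for *Stmn2* (SCG10) was among the first in which the repressor element bound by REST, a silencer of neuronal genes, was described.

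RNA was measured in 25 libraries of sorted cells of the mouse sensorimotor cortex. By the labels the strain was C57BL/6, and every group was homozygous for a floxed *Rest* gene and for a TdTomato reporter that Cre switches on. Live cells positive for GFP or TdTomato were sorted. The cortex received AAV-Syn-GFP in the group called WT or AAV-Syn-Cre in the group called REST cKO, both under the synapsin promoter, so that the WT label stands for mice with intact floxed alleles and a virus, and only infected cells could lose *Rest*. The mice then had a sham operation or a complete thoracic spinal crush (SCI) and were sampled 1, 3 or 7 days later. WT held 4 sham libraries and 3 at each day. REST cKO held 3 sham libraries, 2 at day 1, 4 at day 3 and 3 at day 7. The comparisons ask which genes differ with injury and with loss of *Rest*.

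Each value is a normalized 3′-end read count on a log scale, from which the authors had removed batch and sequencing effects. The scale is stated as log2, but the highest gene lay only 4.33 units above the median gene, so the base is not settled. Differences are therefore given in units of the deposited scale and not as folds. The values hold no read counts, and the methods of the study state only an average depth, so that of a single library is not known. From 2.77% to 29.5% of the genes of a library had values under -2, the highest share in replicate 5 of WT SCI day 3.

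*Rest* itself did not separate the genotypes in sham, where WT libraries lay from -1.55 to -0.26 and REST cKO libraries from -2.65 to -0.52, or at day 1, where WT lay from -1.35 to 0.71 and REST cKO at -0.43 and -0.40. At day 3 the lowest WT library (0.56) was above the highest REST cKO library (-0.04), and at day 7 the same held (0.26 and -0.33). The *Rest* row was 1 of 140 rows that still followed the sequencing components, unlike the other 9791 rows and all 8 growth cone genes. *Xist*, the RNA of the inactive X chromosome, lay on the side of the other labelled sex in 3 of 25 libraries: replicates 4 and 12 of WT SCI day 7, labelled female, at 0.62 and 0.26, and replicate 25 of REST cKO SCI day 1, labelled male, at 1.74. The remaining male-labelled libraries had values up to 1.07 and the remaining female-labelled libraries values from 1.66. The differences given below for single growth cone genes in groups that hold these libraries are given with and without them.

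The labelled cell type, cortical motor neurons, was only in part matched by the markers. The mean of 6 excitatory neuron markers lay between 0.09 and 2.12 in a library, with *Slc17a7*, the vesicular glutamate transporter of cortical neurons, at 1.95 on average. Only 3 of 6 markers of layer 5 projection neurons and 3 of 6 of astrocytes were in the table. Of the inhibitory neuron, immature neuron and oligodendrocyte precursor markers, 4 of 6 each were. The mean of 6 microglia markers lay between 2.56 and 3.47 and was above the excitatory neuron mean in 25 of 25 libraries. The mean of the 3 measured astrocyte markers was above the excitatory neuron mean in 25 libraries and the endothelial mean in 23. In such bulk samples, fewer cells of a type and less RNA per cell cannot be told apart.

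**Figure D1:**
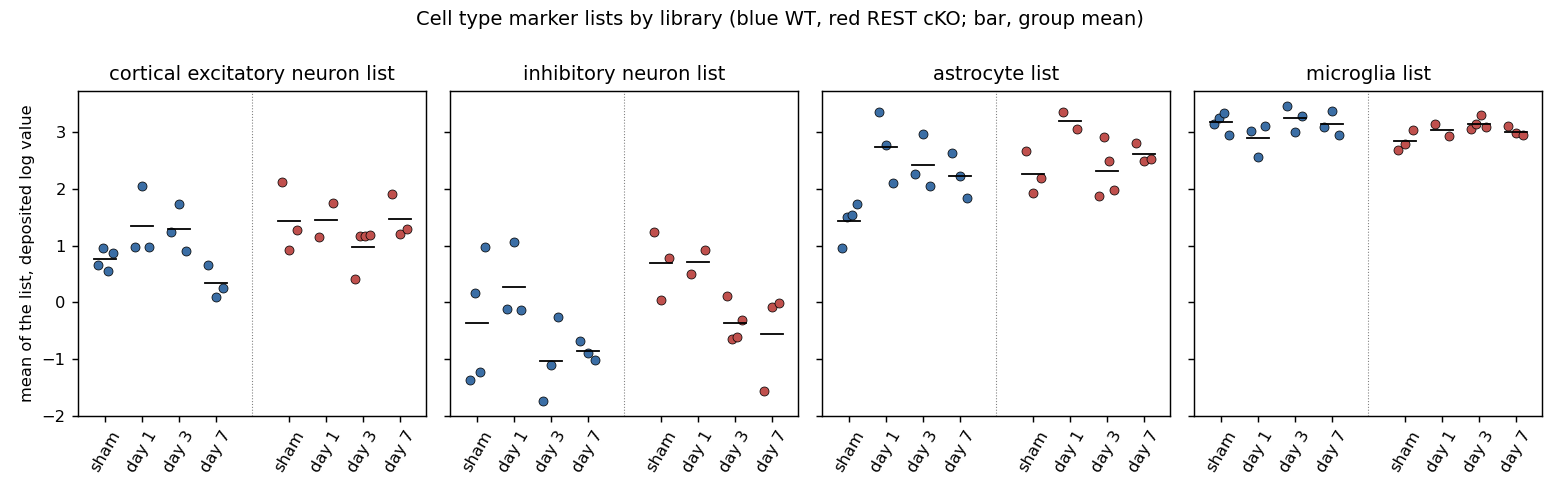
Mean of the markers of 4 cell types (y axis, deposited log value) in each library (points), by day after injury and genotype, with WT blue, REST cKO red and group means as bars. The microglia list lies above the excitatory neuron list in 25 of 25 libraries, and the excitatory neuron list of WT SCI day 7 (0.09 to 0.66) lies below that of REST cKO SCI day 7 (1.20 to 1.90).

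The coding starts of 5 of the genes are printed to show how the proteins reach the membrane, which divides the group. They are the first 90 coding bases of the main GENCODE M21 transcript (GRCm38). Capitals mark the cysteine codons in *Gap43*, *Stmn2* and *Stmn4*, where the fatty acid palmitate is attached, and the glycine codon after the start codon in *Basp1*, where myristate is attached. *Stmn1*, the cytosolic stathmin, has no cysteine codon in this stretch.
Gap43: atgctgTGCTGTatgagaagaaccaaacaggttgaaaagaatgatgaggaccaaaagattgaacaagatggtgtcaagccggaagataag
Basp1: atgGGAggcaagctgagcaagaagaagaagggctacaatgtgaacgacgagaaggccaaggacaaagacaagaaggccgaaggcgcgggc
Stmn1: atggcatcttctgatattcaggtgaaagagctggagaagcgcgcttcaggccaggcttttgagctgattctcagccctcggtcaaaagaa
Stmn2: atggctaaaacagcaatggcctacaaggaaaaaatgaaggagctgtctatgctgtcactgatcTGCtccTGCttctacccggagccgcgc
Stmn4: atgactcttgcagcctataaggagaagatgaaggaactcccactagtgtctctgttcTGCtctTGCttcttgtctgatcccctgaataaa
The cysteines are codons 3 and 4 in *Gap43*, codons 22 and 24 in *Stmn2* and *Stmn3*, and codons 20 and 22 in *Stmn4*. *Marcks* and *Marcksl1* have the glycine codon as *Basp1* does.

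*Gap43* (ENSMUSG00000047261) lies on the minus strand at chr16:42248442-42340651 and has 3 exons. *Basp1* (ENSMUSG00000045763) lies on the minus strand at chr15:25363277-25413764, *Marcks* (ENSMUSG00000069662) on the minus strand at chr10:37133375-37138920 and *Marcksl1* (ENSMUSG00000047945) on the plus strand at chr4:129513581-129515985, each with 2 exons. *Stmn1* (ENSMUSG00000028832) lies at chr4:134468320-134473843 and *Stmn2* (ENSMUSG00000027500) at chr3:8509360-8561606, both on the plus strand with 5 exons. *Stmn3* (ENSMUSG00000027581) lies on the minus strand at chr2:181306459-181314500 with 5 exons, and *Stmn4* (ENSMUSG00000022044) on the plus strand at chr14:66344296-66361680 with 7. The stathmin coding sequences were 69.6% to 73.6% identical over their aligned bases. None of the 432 stretches of 69 bases, the read length, in the last 500 bases of each gene's transcript was found in an annotated transcript of another gene.

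The genes differed in how firmly they were measured. *Marcks* was among the highest genes of the table, at percentile 99.4 of the gene means, followed by *Stmn1* at 94.3, *Basp1* at 92.2, *Stmn2* at 79.4 and *Gap43* at 70.6. *Stmn3*, *Stmn4* and *Marcksl1* lay below the median gene, at percentiles 43.8, 41.8 and 27.7. The pooled SD within groups went from 0.20 in *Marcks*, 0.35 in *Basp1*, 0.44 in *Stmn1*, 0.61 in *Stmn2* and 0.76 in *Gap43* to 1.51 in *Stmn3* and 1.58 in *Marcksl1*, with *Stmn4* just below *Stmn3*. Values under -2 occurred in 5 libraries for *Marcksl1*, 3 for *Stmn4*, 1 for *Stmn3* and 0 for the other genes.

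No growth cone gene passed the test in any comparison. In 12 comparisons of 8 genes, fitted with limma over all genes, 0 of 96 adjusted p-values were under 0.1, the lowest 0.238, and 21 unadjusted p-values were under 0.05, a rule that 6.48% of all genes met over the 12 comparisons. In the 10 comparisons of 2 groups, the libraries of the groups did not overlap in 20 of 80 cases, as in 10.5% of cases over all genes. What follows describes these values and their errors. With 3 against 4 libraries the exact permutation test cannot give a two-sided p below 0.0571, with 3 against 3 none below 0.1, and with 2 against 3 none below 0.2, so it could not pass 0.05 in these cases.

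**Figure D2:**
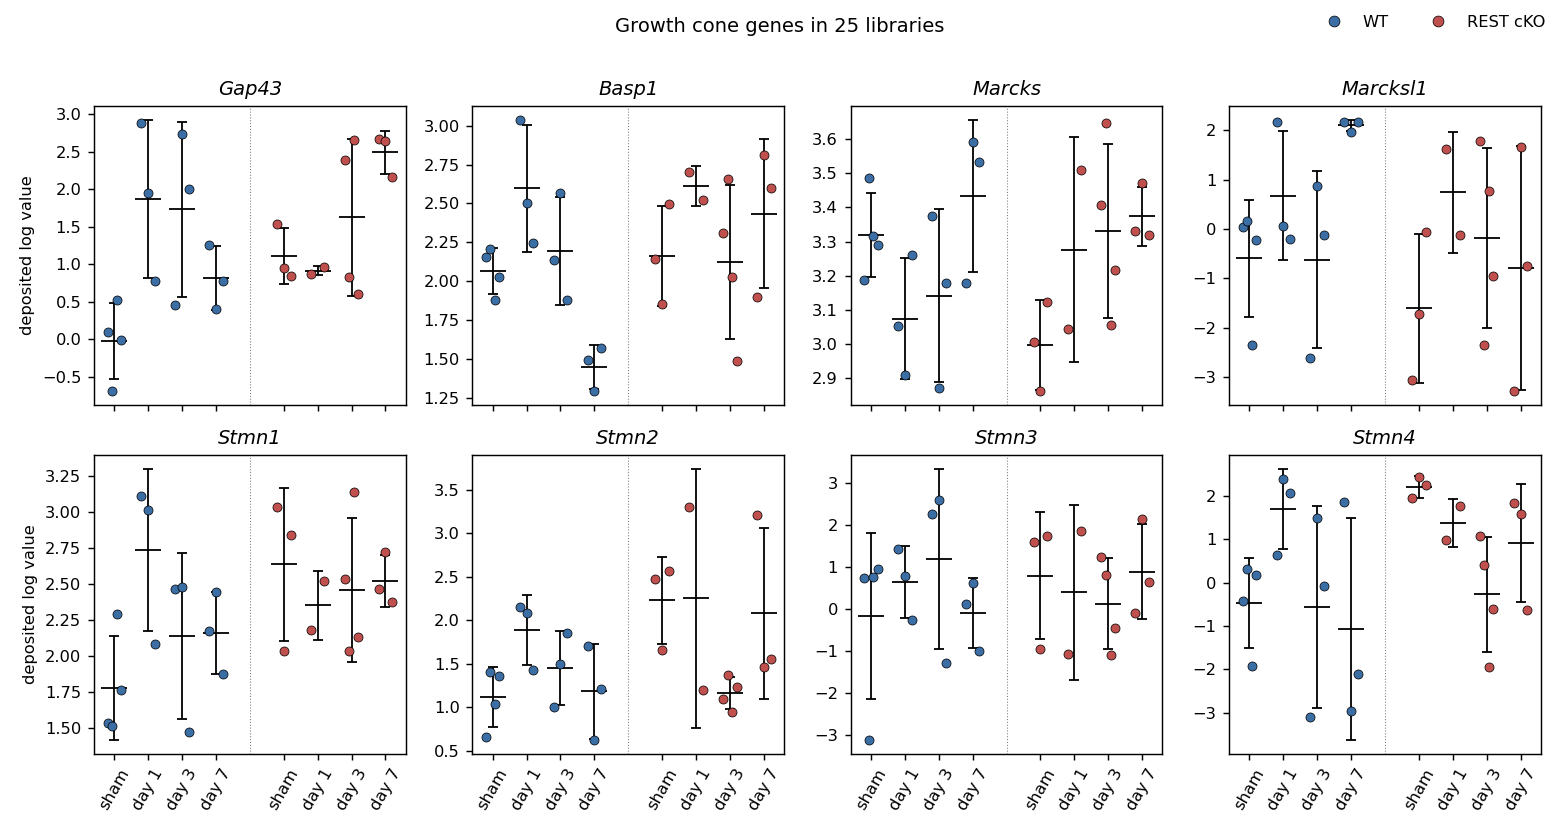
Deposited log value (y axis, a separate range for each gene) of the 8 growth cone genes in each library (points), by day after injury in WT (blue) and REST cKO (red). Bars are group means with SD, and the 4 WT sham libraries of *Gap43* (-0.69 to 0.52) lie below the libraries of WT SCI day 1 (0.78 to 2.89) and of REST cKO SCI day 7 (2.16 to 2.67).

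*Gap43*, the palmitoylated growth cone protein that binds calmodulin, was lowest in WT sham, with values of 0.09, -0.69, 0.52 and -0.02. It was at 2.89, 1.95 and 0.78 at day 1, at 0.45, 2.74 and 2.00 at day 3 and at 1.25, 0.40 and 0.78 at day 7 in WT. All 3 day 1 libraries lay above all 4 sham libraries, whereas day 3 and day 7 overlapped sham. The overlap came from replicate 5 at day 3, the library with the highest share of values under -2, and from replicate 7 at day 7. At day 3 the fitted difference from sham was 1.82 (SE 0.687, n = 3 and 4, limma adjusted p = 0.629). The fitted difference between WT day 1 and sham was 2.17 (SE 0.643, n = 3 and 4, limma adjusted p = 0.569). Differences within batches, here and below, are plain differences of means, not fitted with the sequencing components. For WT day 1 minus sham they were 2.72 in batch 1 (2 against 2 libraries) and 0.53 in batch 2 (1 against 2). Over both batches the plain difference was 1.90, and batch 3 held neither group.

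In REST cKO, *Gap43* values were 1.54, 0.95 and 0.84 (sham), 0.87 and 0.96 (day 1), 2.39, 0.83, 2.66 and 0.60 (day 3), and 2.67, 2.64 and 2.16 (day 7). The 2 day 1 libraries sat inside the sham range, the day 3 libraries split into a high and a low pair, and the 3 day 7 libraries were above sham. Day 7 differed from sham by 1.47 (SE 0.703, n = 3 and 3, adjusted p = 0.874), and by 1.13, 1.69 and 1.32 within the 3 batches. The order of the group means ran from WT sham (-0.03 ± 0.50, SD, n = 4) through WT day 7 (0.81 ± 0.43, n = 3), REST cKO day 1 (0.91 ± 0.06, n = 2), REST cKO sham (1.11 ± 0.38, n = 3), REST cKO day 3 (1.62 ± 1.05, n = 4), WT day 3 (1.73 ± 1.17, n = 3) and WT day 1 (1.87 ± 1.06, n = 3) to REST cKO day 7 (2.49 ± 0.29, n = 3). The libraries of each of the 7 pairs of neighbours in this order overlapped.

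Between genotypes, the *Gap43* libraries of REST cKO lay above those of WT without overlap in sham and at day 7, and overlapped at days 1 and 3. The fitted difference at day 7 was 1.85 (SE 0.659, n = 3 and 3, adjusted p = 0.321). The plain difference of means was 1.68, with 1.85 in batch 1 and 1.86 in batch 2. The sham difference was 1.22 (SE 0.710, n = 3 and 4, adjusted p = 0.775), with 1.84 in batch 1 and 0.70 in batch 2. The day 7 difference exceeded the sham difference by 0.63 (SE 0.990, adjusted p = 0.950), and by 0.37 without replicate 7 of WT SCI day 7 or 0.99 without replicate 10 of WT sham, so the genotype difference was not shown to depend on injury. All 3 WT day 7 libraries were labelled female and all REST cKO sham and day 7 libraries male. With the labelled sex as a term, the day 7 difference was 0.80 (adjusted p = 0.772) and the sham difference 0.62. *Gap43* was higher in male-labelled than in female-labelled libraries in 5 of the 5 groups that held both, by 0.12 in WT sham, 1.53 in WT day 1, 1.92 in WT day 3, 0.09 in REST cKO day 1 and 1.38 in REST cKO day 3. The 1 male-labelled library of REST cKO day 1 is replicate 25, whose *Xist* value went against its label, so that 4 groups remain without it. Without the 3 libraries in which *Xist* went against the label, which leaves 1 WT day 7 library, the day 7 difference was 2.24 (SE 0.950, adjusted p = 0.380), and 0.99 with the sex term as well. Its excess over the sham difference was then 0.90.

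*Basp1*, the myristoylated protein also called CAP-23, was measured more tightly. Its WT values were 2.15, 2.20, 1.88 and 2.02 (sham), 3.04, 2.51 and 2.24 (day 1), 2.13, 2.56 and 1.88 (day 3), and 1.49, 1.29 and 1.57 (day 7). Day 1 lay above sham and day 7 below it, both without overlap. The fitted differences were 0.72 (SE 0.331, n = 3 and 4, adjusted p = 0.745) at day 1 and -0.67 (SE 0.321, n = 3 and 4, adjusted p = 0.704) at day 7. The day 1 difference was 0.46 without replicate 1 and 1.11 without replicate 8 of WT SCI day 1. Within batches 1 and 2 the differences were 0.59 and 0.29 at day 1, and -0.79 and -0.38 at day 7. The day 7 difference was -0.74 (SE 0.471, adjusted p = 0.639) without replicates 4 and 12 of WT SCI day 7 and replicate 25 of REST cKO SCI day 1.

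The REST cKO libraries of *Basp1* had values of 2.14, 1.85 and 2.50 (sham), 2.70 and 2.52 (day 1), 2.31, 2.66, 2.03 and 1.48 (day 3), and 1.90, 2.81 and 2.60 (day 7). Only day 1 stood clear of sham, by 0.51 (SE 0.371, n = 2 and 3, adjusted p = 0.944), and that difference was 0.85 within batch 2 and 0.03 within batch 3. It was 0.34 without replicate 18 of REST cKO sham. It was 0.50 without the 3 libraries in which *Xist* went against the label, which leaves 1 day 1 library. At day 7 the REST cKO libraries lay above the WT libraries by 1.11 (SE 0.339, n = 3 and 3, adjusted p = 0.238). The genotype difference at day 7 exceeded that in sham by 1.08 (SE 0.509, adjusted p = 0.782). The difference at day 7 was 0.51 within batch 1 and 1.24 within batch 2, 0.94 with a term for labelled sex, and 1.19 (SE 0.491, adjusted p = 0.374) without those 3 libraries, where its excess over sham was 1.13.

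*Marcks*, which crosslinks actin and holds phosphoinositides at the membrane, varied over only 0.78 units between the lowest and the highest of 25 libraries. REST cKO sham, at 3.01, 2.86 and 3.12, lay below WT sham, at 3.19, 3.48, 3.32 and 3.29. The fitted difference was -0.44 (SE 0.197, n = 3 and 4, adjusted p = 0.685), with -0.33 in batch 1 and -0.44 in batch 2. REST cKO day 7, at 3.33, 3.47 and 3.32, lay above REST cKO sham by 0.44 (SE 0.195, n = 3 and 3, adjusted p = 0.862), and by 0.32, 0.61 and 0.20 within the 3 batches. Those 2 comparisons share the REST cKO sham libraries, which were the lowest group. WT libraries ranged from 2.87 to 3.59 after injury and overlapped WT sham at each day.

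*Marcksl1*, the smaller relative of *Marcks*, had the highest pooled SD within groups of the 8 genes. Its WT day 7 libraries were close together at 2.17, 1.96 and 2.16, while WT sham was at 0.04, 0.15, -2.35 and -0.23 and REST cKO day 7 at -3.28, 1.66 and -0.75. WT day 7 thus lay above WT sham by 2.40 (SE 1.23, n = 3 and 4, adjusted p = 0.743) and above REST cKO day 7, where the REST cKO minus WT difference was -2.75 (SE 1.30, n = 3 and 3, adjusted p = 0.489). The former was 1.97 within batch 1 and 3.45 within batch 2. The latter was -5.34 within batch 1 and -0.50 within batch 2, and it ran from -4.15 without replicate 13 to -1.65 without replicate 2 of REST cKO SCI day 7. Its excess over the sham difference was -1.11 (SE 1.95, adjusted p = 0.956), and ran from -3.06 without replicate 13 of REST cKO SCI day 7 to -0.24 without replicate 14 of WT sham. Without the 3 libraries in which *Xist* went against the label, the day 7 genotype difference was -3.08 (SE 1.87, adjusted p = 0.549) and the WT day 7 minus sham difference 2.48, and the excess over sham was -0.91. The other WT groups ranged from -2.61 to 2.17 and the other REST cKO groups from -3.05 to 1.78.

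**Figure D3:**
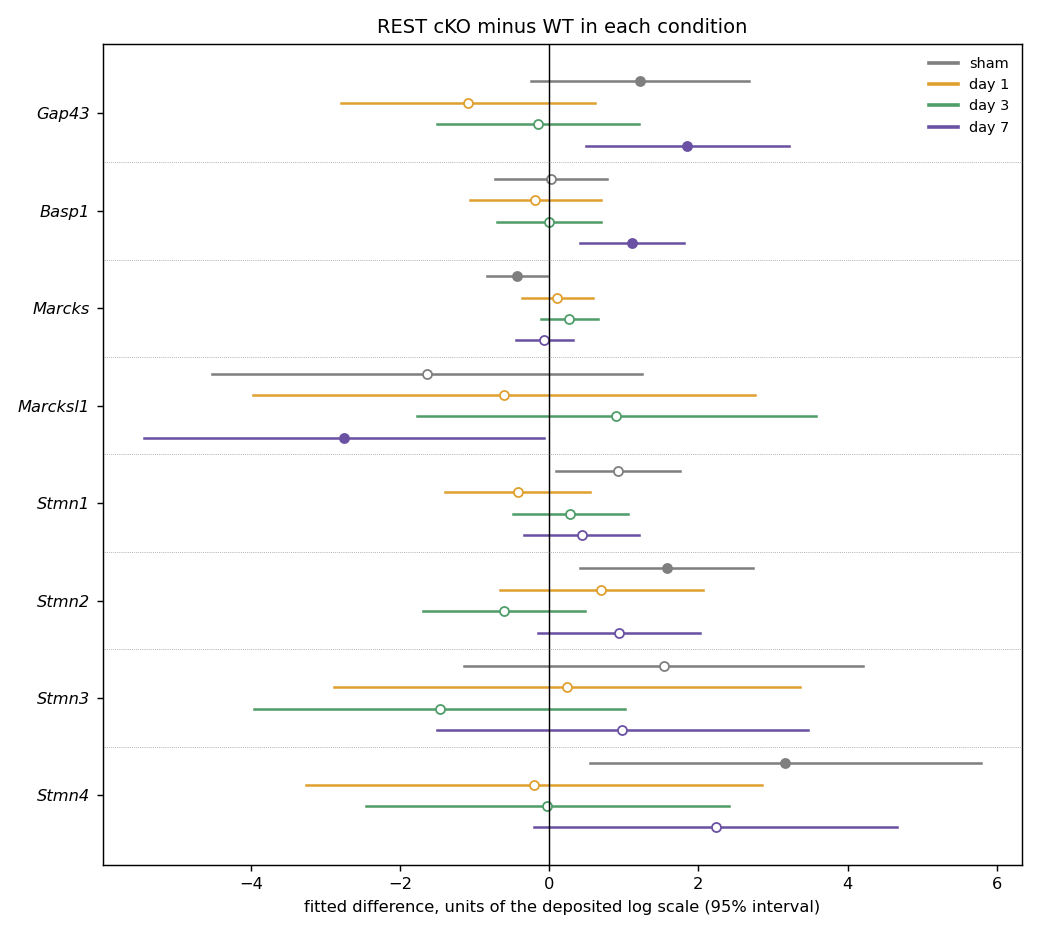
Fitted REST cKO minus WT difference (x axis, units of the deposited log scale) with its 95% interval for each gene in sham and at each day, where filled points mark groups whose libraries did not overlap. Before adjustment, the intervals of *Gap43* (0.50 to 3.21) and *Basp1* (0.41 to 1.81) at day 7 lie above 0 and that of *Marcksl1* (-5.43 to -0.07) below. In sham those of *Stmn1* (0.10 to 1.76), *Stmn2* (0.41 to 2.74) and *Stmn4* (0.54 to 5.78) lie above 0 and that of *Marcks* (-0.84 to -0.03) below. The intervals of *Marcksl1*, *Stmn3* and *Stmn4* are wide, and 0 of 8 genes passed the adjusted threshold in any condition.

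Among the stathmins, *Stmn1*, the form without a membrane anchor, had WT values of 1.54, 1.51, 2.29 and 1.76 in sham and of 3.11, 3.02 and 2.09 at day 1. The groups overlapped through the highest sham and the lowest day 1 library, with a fitted difference of 1.08 (SE 0.367, n = 3 and 4, adjusted p = 0.634). REST cKO sham and WT sham overlapped too, with a fitted difference of 0.93 (SE 0.404, n = 3 and 4, adjusted p = 0.669). The remaining groups ranged from 1.47 to 3.14, and no *Stmn1* comparison was free of overlap.

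*Stmn2*, the membrane-anchored stathmin of growing neurites, was at 0.66, 1.41, 1.04 and 1.36 in WT sham and at 2.15, 2.09 and 1.43 at WT day 1. Day 1 lay above sham by 0.86 (SE 0.513, n = 3 and 4, adjusted p = 0.861), with the lowest day 1 library just above the highest sham library. It was 1.08 in batch 1 and 0.23 in batch 2. Its REST cKO values were 2.47, 1.66 and 2.57 (sham), 3.30 and 1.20 (day 1), 1.10, 1.37, 0.95 and 1.23 (day 3), and 3.21, 1.47 and 1.56 (day 7). REST cKO sham lay above WT sham by 1.57 (SE 0.566, n = 3 and 4, adjusted p = 0.562), by 1.44 in batch 1 and 0.46 in batch 2. Within REST cKO, day 3 lay below sham with a difference of -1.45 (SE 0.542, n = 4 and 3, adjusted p = 0.947), and of -1.37, -0.49 and -1.34 within the 3 batches. Both of these differences use the REST cKO sham libraries.

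*Stmn4*, a further membrane-anchored stathmin of the brain, varied more. Its REST cKO sham libraries were high and close together, at 1.94, 2.44 and 2.25, against -0.43, 0.31, -1.93 and 0.17 in WT sham. The fitted difference was 3.16 (SE 1.27, n = 3 and 4, adjusted p = 0.618), with 2.00 in batch 1 and 3.32 in batch 2. Within REST cKO the sham libraries lay above those at each day, which were 0.99 and 1.77 at day 1, 1.08, 0.40, -1.96 and -0.61 at day 3, and 1.83, 1.58 and -0.64 at day 7. The fitted differences from sham were -0.80 (SE 1.30, n = 2 and 3, adjusted p = 0.973), -2.88 (SE 1.22, n = 4 and 3, adjusted p = 0.999) and -1.38 (SE 1.26, n = 3 and 3, adjusted p = 0.956). The first of these turned to 0.27 without replicate 19 of REST cKO SCI day 1, and was -1.72 without the 3 libraries in which *Xist* went against the label. The day 7 difference was -2.43 without replicate 6 of REST cKO sham and -0.71 without replicate 26 of REST cKO SCI day 7. Within batches 1, 2 and 3 it was -0.12, -0.86 and -2.89, and the day 3 difference was -0.86, -3.22 and -2.85. The day 1 difference was -1.45 in batch 2 and -0.48 in batch 3. WT went the other way at day 1, where 0.64, 2.38 and 2.08 lay above sham by 2.56 (SE 1.15, n = 3 and 4, adjusted p = 0.726), and by 1.57 in batch 1 and 2.96 in batch 2. WT values at day 3 and day 7 spread from -3.11 to 1.85.

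*Stmn3* spread from -3.13 to 2.61, and its groups overlapped in all 10 comparisons of 2 groups.

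**Figure D4:**
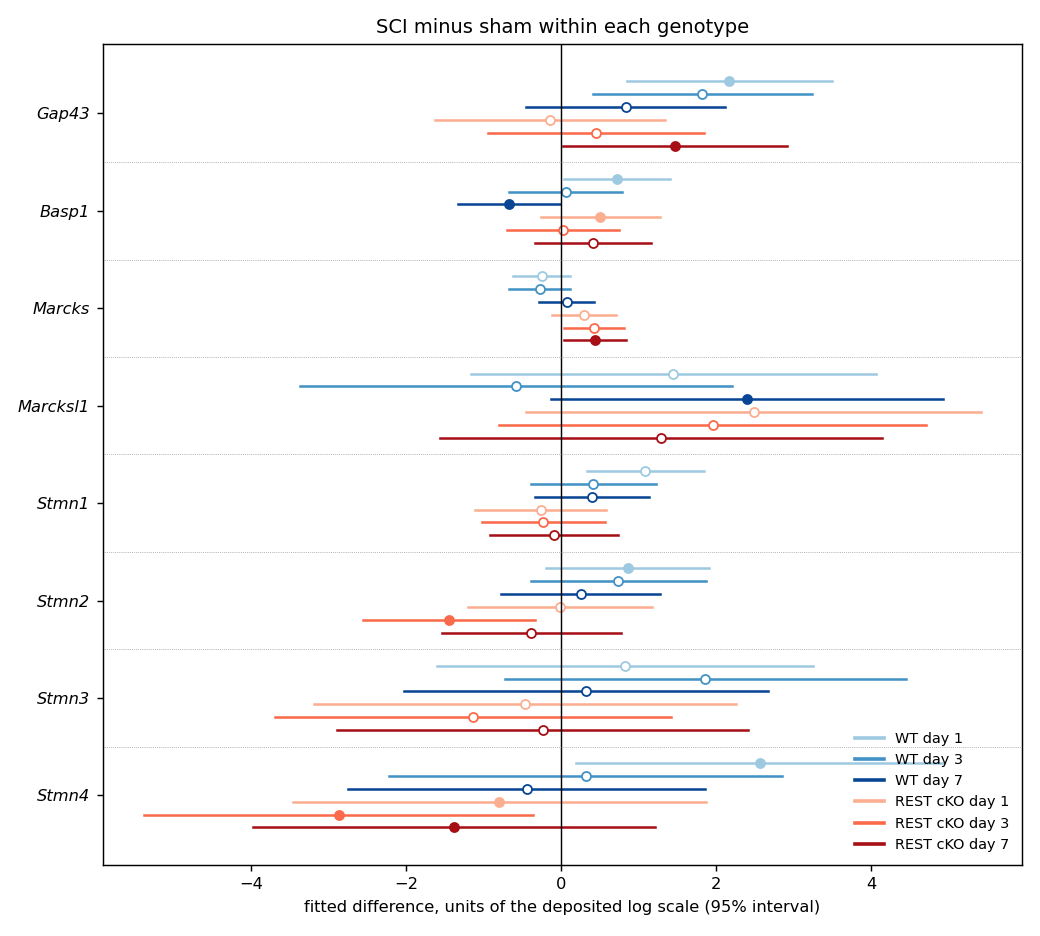
Fitted SCI minus sham difference (x axis, units of the deposited log scale) with its 95% interval for each gene at each day in WT (blue) and REST cKO (red), where filled points mark groups whose libraries did not overlap. *Gap43*, *Basp1*, *Stmn2* and *Stmn4* at WT day 1 have filled points above 0, and *Stmn4* of REST cKO has filled points below 0 at each day.

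Counted by comparison, 4 of the 8 genes were higher and 0 lower than sham without overlap at WT day 1, where 4.34% of all genes were higher and 2.68% lower. The fitted differences were positive for 7 of 8 genes, with a median of 0.97 beside 0.12 over all genes. At WT day 3, 0 of the 8 were free of overlap (6.54% of all genes), and at WT day 7, 1 was higher (2.62%) and 1 lower (4.25%). In REST cKO, 1 was higher (13.9%) and 1 lower (6.46%) at day 1, with 2 against 3 libraries. There, 0 were higher (3.81%) and 2 lower (2.88%) at day 3, and 2 were higher (5.89%) and 1 lower (4.81%) at day 7. The medians of the 8 differences were -0.08, -0.10 and 0.16 at days 1, 3 and 7 in REST cKO, beside 0.29, 0.03 and 0.07 over all genes. The 3 comparisons of a genotype share its sham libraries.

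For REST cKO against WT, 3 of 8 genes were higher (4.02% of all genes) and 1 lower (3.85%) without overlap in sham, and 2 were higher (8.03%) and 1 lower (4.38%) at day 7. At day 1 and day 3 there were 0, beside 18.6% and 7.59% of all genes. The 8 fitted differences had medians of 1.07 (sham), -0.19 (day 1), -0.02 (day 3) and 0.96 (day 7), beside 0.04, 0.19, 0.05 and 0.23 over all genes. None of the 8 genes differed in 1 direction in all 4 conditions. An exact permutation test of genotype within conditions, over 245000 arrangements, gave unadjusted two-sided p-values from 0.0699 for *Stmn4* and 0.0773 for *Stmn2* to 0.982 for *Marcks* over the 8 genes. Over all genes the adjusted threshold was passed by 1 gene (0.0101%) at WT day 3 and in the genotype difference averaged over conditions, by 2 (0.0201%) at REST cKO day 3 and for the day 7 interaction, by 3 (0.0302%) between genotypes in sham, and by 0 (0%) in the other 7 comparisons.

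Of the cell type marker lists, 1 or more lay apart without overlap in 9 of the 10 comparisons of 2 groups, the exception being the genotypes at day 3. Between genotypes at day 7, the excitatory neuron mean was 0.66, 0.09 and 0.24 in WT and 1.90, 1.20 and 1.29 in REST cKO, without overlap, as for *Gap43* and *Basp1*. The mean of the 3 measured layer 5 projection neuron markers also lay apart there, from -1.41 to -0.23 in WT and from 0.06 to 1.04 in REST cKO. In sham, the excitatory neuron mean was 0.55 to 0.96 in WT and 0.92 to 2.12 in REST cKO, which overlapped. The astrocyte mean lay from 0.95 to 1.73 in WT sham, below all libraries of WT day 1 (2.10 to 3.35), WT day 7 (1.84 to 2.63) and REST cKO sham (1.93 to 2.66). At WT day 1 the excitatory neuron mean, from 0.98 to 2.06, was also above WT sham. At REST cKO day 1, where *Basp1* lay above and *Stmn4* below sham, the means of the immature neuron, oligodendrocyte precursor and astrocyte lists were above sham without overlap, by 1.28, 1.25 and 0.94. At REST cKO day 3, where *Stmn2* and *Stmn4* lay below sham, the immature neuron and microglia means were above it, by 0.72 and 0.31. *Sox11*, 1 of the 4 measured immature neuron markers, was among the 140 rows that still followed the sequencing components. Without it the immature neuron difference from REST cKO sham was 0.67 at day 1, still without overlap, and -0.02 at day 3, with overlap. The inhibitory neuron mean was 0.04 to 1.24 in REST cKO sham and -1.56 to -0.02 in REST cKO day 7, where *Stmn4* was lower. At WT day 3, where no growth cone gene was free of overlap, the layer 5, immature neuron and astrocyte means were above sham, and at day 1 the immature neuron mean was higher in REST cKO than in WT. Both of these immature neuron differences overlapped without *Sox11*, which leaves 8 comparisons with a list apart. The part of cell composition in the differences of the growth cone genes was not tested.

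The other genes of the same machinery gave no call either. Of 35 listed partners in the growth cone cytoskeleton and membrane 32 were measured, and of 19 kinases, phosphatases and calmodulin genes and 13 palmitoylation and mRNA-binding genes 19 and 11 were measured. None passed in any of the 12 comparisons, in either direction. Of the 32 partners, 6 were higher and 1 lower without overlap at WT day 1 (4.34% and 2.68% of all genes), with a median difference of 0.95 beside 0.12 over all genes. The median was 0.38 at WT day 3 and 0.05 at WT day 7, beside 0.01 and -0.12. At WT day 3, 6 were higher and 1 lower (6.54% of all genes in either direction), and at WT day 7, 2 were higher and 1 lower (2.62% and 4.25%). In REST cKO the medians were -0.09 at day 1, where 2 partners were higher and 5 lower without overlap (13.9% and 6.46% of all genes), -0.56 at day 3 with 1 higher and 2 lower (3.81% and 2.88%) and -0.23 at day 7 with 1 higher and 3 lower (5.89% and 4.81%), beside 0.29, 0.03 and 0.07 over all genes. Between genotypes, 6 were higher and 2 lower in sham (4.02% and 3.85%), with a median of 0.96 beside 0.04, and 6 were higher and 2 lower at day 7 (8.03% and 4.38%), with a median of 0.77 beside 0.23. At days 1 and 3 the genotype medians were -0.06 and -0.10, beside 0.19 and 0.05. There, 3 were higher and 4 lower at day 1, and 2 higher and 1 lower at day 3, where 18.6% and 7.59% of all genes were free of overlap in either direction. The medians of the 19 kinase, phosphatase and calmodulin genes lay between -0.23 and 0.31 in the 10 comparisons of 2 groups, at 0.14 at WT day 1, 0.31 between genotypes in sham and 0.25 between genotypes at day 7. Those of the 11 palmitoylation and mRNA-binding genes lay between -0.31 and 0.69, at 0.19, 0.21 and 0.69 in the same 3 comparisons. *Mapk9* of the kinase list was also among the 140 rows. The largest day 7 genotype differences without overlap in the 3 lists were -4.15 (SE 1.01, adjusted p = 0.159) for *Cap2*, an actin-binding protein, 3.26 (SE 0.905, adjusted p = 0.232) for *Mapk10*, the neuronal JNK kinase, and 1.15 (SE 0.694, adjusted p = 0.608) for *Elavl1*, the RNA-binding protein HuR, each with 3 against 3 libraries. Without the 3 libraries in which *Xist* went against the label they were -4.14, 2.13 and 1.21. *Cap2* values were 1.63 to 2.50 in WT day 7 and -3.04 to -0.66 in REST cKO day 7. *Mapk10* values were -3.32 to -0.40 in WT and 1.10 to 2.05 in REST cKO.

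Across the 25 libraries, 18 of 28 pairs of growth cone genes were positively correlated, with r from -0.42 to 0.61 and a median of 0.14. Over all 49307415 pairs of the genes tested, 53.3% were positive, with a median of 0.02. An r of at least 0.52 in size, which 3 of the 28 pairs had, was found in 2.0% of all pairs, and a Spearman's rho of at least 0.46 in size, which 7 had, in 4.02%. *Gap43* and *Stmn1* had the highest, with Pearson's r = 0.61 (permutation p = 0.00122, adjusted 0.0319) and Spearman's rho = 0.63 (permutation p = 0.0010, adjusted 0.0140). That relation was 0.57 without the 2 libraries farthest from the *Gap43* median, 0.76 in batch 1, 0.86 in batch 2 and 0.51 after removal of the group means. *Stmn2* and *Stmn4* had r = 0.58 (permutation p = 0.00228, adjusted 0.0319) and rho = 0.67 (permutation p = 3.7e-04, adjusted 0.0104). For them r was 0.67 without the 2 farthest libraries, 0.72 in batch 1, 0.42 in batch 2, and 0.32 after removal of the group means. *Stmn1* and *Stmn3* had r = 0.52 (permutation p = 0.00692, adjusted 0.0646) and rho = 0.53 (permutation p = 0.00713, adjusted 0.0499). That r was 0.33 without the 2 farthest libraries, 0.64 in batch 1, 0.13 in batch 2 and 0.57 after removal of the group means. Spearman's rho passed an adjusted p of 0.1 for 4 more pairs, of which *Marcks* with *Stmn2* (rho = -0.53, r = -0.42) and *Marcks* with *Stmn4* (rho = -0.46, r = -0.42) were negative. *Gap43* with *Basp1* had r = 0.38 (permutation p = 0.0612, adjusted 0.214) and rho = 0.40 (permutation p = 0.0471, adjusted 0.165). The 5 libraries of batch 3 were too few for a value of their own. All pairs share the libraries, their composition and their scaling.

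**Figure D5:**
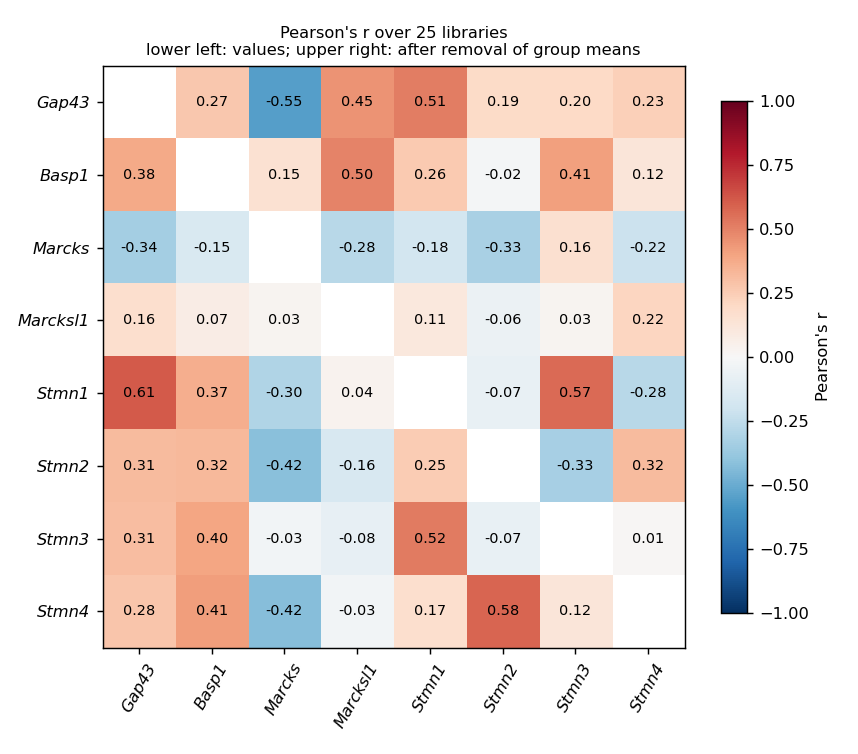
Pearson's r between the growth cone genes over 25 libraries, with the values as deposited in the lower left and after removal of the group means in the upper right (colour scale from -1 to 1). *Gap43* and *Stmn1* stay at 0.61 and 0.51, *Stmn2* and *Stmn4* go from 0.58 to 0.32, and the median over 28 pairs is 0.14 in both.

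The genes whose values were most like each member over the 25 libraries are given as a description. *Gap43* was nearest to *Fabp3*, a fatty acid-binding protein (r = 0.80), *Serpini1*, the axonal protease inhibitor neuroserpin (0.75), and *Slc25a46* (0.73). *Basp1* was nearest to *Mlst8* (0.77), *Abhd6* (0.76) and *Sf3b5* (0.74), and *Marcks* to *Senp2* (0.76), *Tut7* (0.76) and *Cdkn1b* (0.70). *Marcksl1* was nearest to *Sec63* (0.78), *Fam171a1* (0.71) and *Zfp120* (0.69). *Stmn1* was nearest to *Rtn1*, a reticulon of neurons (0.78), *Akap5* (0.77) and *Zmat2* (0.75), and *Stmn2* to *Nr4a1*, an activity-dependent transcription factor (0.78), *Ndufab1* (0.78) and *Dtna* (0.77). *Stmn3* was nearest to *Atmin* (0.77), *Lancl1* (0.77) and *Slc24a3* (0.75), and *Stmn4* to *Sept7*, a septin (0.85), *Cttn*, the actin-binding protein cortactin (0.82), and *Rnf141* (0.77).

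The letters of the REST-binding element were searched in RefSeq promoter windows of 300 bases (GRCm38.p6), which held *Basp1*, *Marcksl1* and *Stmn3* of the 8 genes. The search compared TTCAGCACC, 2 free letters and GGACAGCGC on both strands and allowed 3 mismatches in 18 letters. It matched in 0 of these 3 windows and in 37 of 32851 windows (0.113%), and says nothing of sequence outside them.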

How the data were processed

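The deposited table held normalized 3′-end mRNA counts of 25 libraries, which the study plots as log2 counts. The authors aligned reads to mm10 (GRCm38) with STAR, quantified them with Salmon, scaled them with DESeq2, removed batch effects with RUV, left out genes without counts in most samples and regressed out 2 sequencing components. No versions are given in the sources used here. The deposited table also holds the authors' own log2 fold changes and p-values, which were not used. Of 9955 rows, 24 had no symbol and were left out, and 9931 genes were tested. No library was left out. All libraries differed from each other in their values. The study counts mice as its replicates here, but the labels do not tie each library to an animal.

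Groups, sex, batch and components came from the labels. Group means with both components as covariates were fitted with limma 3.58.1 (R 4.3.3, empirical Bayes with a mean trend), with Benjamini-Hochberg adjustment over all genes and a threshold of 0.1. By rule, a difference is given for a growth cone gene by itself only where it passed or where the 2 groups' libraries did not overlap. For the injury interaction, that had to hold between genotypes at day 7. Exceptions, chosen after values were seen, are *Gap43* at WT day 3, and *Stmn1* at WT day 1 and between genotypes in sham. The day 1 moves of genes that went in opposite directions in the 2 genotypes and the sex coefficient are also given. The 3 genes of highest Pearson's r are named for each member, and 1 gene for each of 3 lists, by the largest day 7 genotype difference without overlap. Correlations were tested with 100000 permutations and adjusted over 28 pairs. The genes and lists were chosen with earlier results of these data known. The sex coefficient, the day 1 interaction, the fits without 3 libraries and the immature neuron mean without *Sox11* were added after values were seen. Sequences came from GENCODE M21 and RefSeq, with Biopython 1.88. Of genes changed by 1, 2 or 3 units in simulated data for the genotype comparison at day 7 (200 of 9931 genes), the fit recovered 3.5%, 16% and 41%.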

Additional observations from a re-analysis of the deposited data

Results flagged for a closer look

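Single libraries lay far from the rest of their group in 2 of 16 tests of groups of 4 libraries by Dixon's criterion, which flags about 1 group in 20 by chance. *Marcksl1* was at -2.35 in replicate 14 of WT sham, where the other 3 libraries lay from -0.23 to 0.15. *Stmn3* was at -3.13 in replicate 10 of WT sham, where the others lay from 0.74 to 0.94.

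At day 1, every REST cKO library moved the other way from its sham mean than every WT library for 4 of the 8 genes, as for 11.6% of all genes. The REST cKO minus WT difference of these moves was -2.10 for *Gap43* (moves of 1.90 in WT and -0.20 in REST cKO), 0.52 for *Marcks* (-0.24 and 0.28), -1.25 for *Stmn1* (0.96 and -0.29) and -3.00 for *Stmn4* (2.17 and -0.83). An interaction term fitted over all genes, added after these values were seen, gave -2.31 (SE 0.949, limma adjusted p = 0.797), 0.55 (SE 0.263, adjusted p = 0.859), -1.35 (SE 0.541, adjusted p = 0.778) and -3.36 (SE 1.70, adjusted p = 0.873), so none passed. Without the 3 libraries in which *Xist* went against the labelled sex, which leaves 1 REST cKO day 1 library, the term was -2.65, 0.30, -1.69 and -4.20 (lowest adjusted p = 0.904). Of 9931 genes, 0 passed an adjusted p of 0.1 for that term and 573 (5.77%) had an unadjusted p under 0.05. REST cKO day 1 had 2 libraries, and in 1 of them *Xist* went against the labelled sex.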

How the results depend on the processing

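No growth cone gene passed the threshold in the 34 alternative fits, which varied the covariates, library weights, mean trend, scaling, filter, samples fitted and single libraries left out. The lowest adjusted p among them was 0.199, for *Gap43* at WT day 1 against sham with library weights. Of 23 differences given for single genes by the rule on overlap, 1 changed direction: that of *Stmn4* between REST cKO day 1 and sham. It ran from -1.89 to 0.27 as single libraries were left out. A term for labelled sex moved the *Gap43* genotype difference to 0.80 at day 7 (1.85 without it) and to 0.62 in sham (1.22 without it), and that of *Marcksl1* at day 7 from -2.75 to -4.03. The number of genes passing among all 9931 ran from 0 to 24 at WT day 1 and from 0 to 21 between genotypes at day 7. The causes were not tested. Libraries could not be paired by replicate because each replicate number belongs to 1 library and no groups share a number. Batch, which groups do share, was fitted as a term among the alternatives. The depth of single libraries is unknown, values under -2 occurred in 5 libraries for *Marcksl1* and 3 for *Stmn4*, and the log base is not settled, which alters no p-value. Leaving out 1 of the 2 REST cKO day 1 libraries assumes that the other varies like the rest.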

Other observations

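In the fit with labelled sex as a term, the male minus female coefficient was 1.14 for *Gap43* (SE 0.365, limma adjusted p = 0.459) and 1.39 for *Marcksl1* (SE 0.805, adjusted p = 0.741), and it lay between -0.17 and 0.61 for the other 6 growth cone genes. Of all 9931 genes, 0 passed an adjusted p of 0.1 for this coefficient and 729 (7.34%) had an unadjusted p under 0.05. Without the 3 libraries in which *Xist* went against the labelled sex, it was 1.22 for *Gap43* (SE 0.404, adjusted p = 0.425), 2.05 for *Marcksl1* (SE 0.844, adjusted p = 0.562) and from -0.22 to 0.21 for the others, and 0 of 9931 genes passed, with 774 (7.79%) at an unadjusted p under 0.05. Both fits were made after the values were seen.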
